A study of Mus musculus with 4 samples.

Results

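The 8 genes described here, chosen by gene symbol, encode transcription factors that act in the epithelial-mesenchymal transition, and co-repressors. They are the zinc-finger factors Zeb1 and Zeb2, the zinc-finger factors Snai1 and Snai2, the basic helix-loop-helix factors Twist1 and Twist2, and the co-repressors Ctbp1 and Ctbp2. All 8 were found among the 54446 genes of the deposited table. RNA was sequenced from vessel-lining (endothelial) cells of the retina of C57BL/6 mice at postnatal day 16, with 100 cells isolated by flow cytometry for each library. There were 2 control libraries, with the genotype given only as control, and 2 libraries titled Zeb1-CKO, whose genotype field reads Zeb1 knockdown. The sources used here give neither the Cre driver, the deleted part of Zeb1 nor the number of mice behind a library, so a p-value here reflects the spread between libraries alone, which may be technical.

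ZEB, SNAI and TWIST factors bind E-box letters in DNA and switch genes on or off during the conversion of epithelial into mesenchymal cells. ZEB and SNAI factors are best known for silencing genes of epithelial junctions, such as the gene of E-cadherin, and ZEB factors recruit CtBP proteins, which bring histone-modifying enzymes. Endothelial cells are mesenchymal-like in that they carry ZEB and SNAI transcripts and normally lack most epithelial junction genes.

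Values are FPKM, fragments per kilobase of a transcript relative to all fragments of a library, which can be compared between genes because they are per length. From the steps between low values, the depth was estimated at 20.6 and 11.2 M fragments in controls 1 and 2 and at 22.0 and 16.8 M in Zeb1-CKO libraries 1 and 2, so control 2 was the shallowest. All 12 endothelial markers were present, with sums of 3936 and 4701 FPKM for the controls and 4490 and 4886 for Zeb1-CKO, and with the endothelial claudin gene Cldn5 alone at 2692 to 3500 FPKM. Markers of other cells were present as well. The 10 pericyte markers summed to 2493 and 2022 FPKM in the controls against 1725 and 1928 in the Zeb1-CKO pair, with the pericyte gene Rgs5 between 1201 and 1673 FPKM. The 7 smooth-muscle markers summed to 573 and 431 FPKM in the controls against 255 and 334 in the Zeb1-CKO pair. Photoreceptor markers were lowest in control 2, at 11.3 FPKM over 9 genes, against 103 FPKM in control 1 and 54.1 and 61.4 FPKM in the Zeb1-CKO libraries. Müller glia and astrocyte markers summed to between 391 and 427 FPKM in all 4 libraries and the 11 microglial markers to between 64.4 and 118 FPKM, with Aif1 at 0 in Zeb1-CKO library 1. These sums hide differences between members. Of 7 microglial genes tested as described below, 6 had negative differences and 1 a positive one (median log2 difference -1.20). By limma 0 were called and 4 had an unadjusted p under 0.05. Of 7 tested Müller glia and astrocyte genes, 4 had positive and 3 negative differences (median 0.14). By limma 0 were called and 2 had an unadjusted p under 0.05. In bulk RNA of sorted cells, fewer cells of a type and less RNA per cell cannot be told apart.

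**Figure D1:**
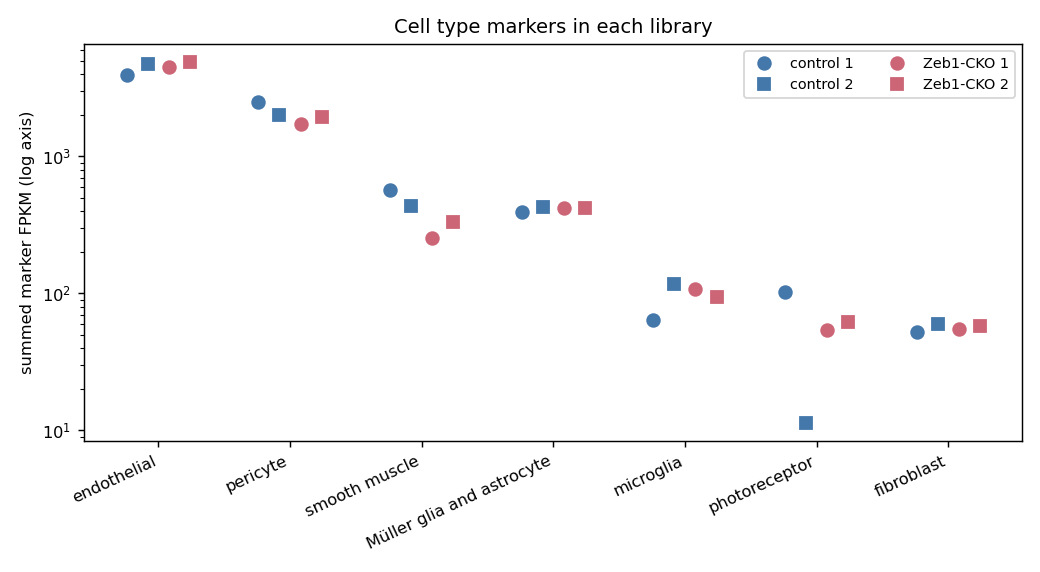
Summed FPKM (log axis) of marker lists for 7 cell types, with 1 point per library (blue, control; red, Zeb1-CKO; circle, library 1; square, library 2). Both Zeb1-CKO libraries lie below both controls for pericyte and smooth-muscle markers, and control 2 lies lowest for photoreceptor markers, at 11.3 FPKM.

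None of the 8 genes passed the test between genotypes. The largest differences were a higher level of Snai1 and a lower level of Zeb1 in Zeb1-CKO cells. Differences were taken between log2(FPKM + 1) values, so those of low genes are understated, and were tested with limma in the 13651 genes that averaged 1 FPKM or more over the 4 libraries. A gene was called at a Benjamini-Hochberg p under 0.05 over all of these genes. Of the 8, 6 reached that mean and Twist1 and Twist2 did not. Of the 6 tested, 0 were called by limma, 2 (Zeb1 and Snai1) had an unadjusted p under 0.05, and 3 (Zeb1, Snai1 and Snai2) had libraries that did not overlap between genotypes. Over all tested genes, 2.23% were called higher and 0.901% lower, 3.13% in all. An unadjusted p under 0.05 was found in 17.9% of tested genes, and the genotypes did not overlap in 49.4%, so 3 of 6 is near the share over all genes.

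**Figure D2:**
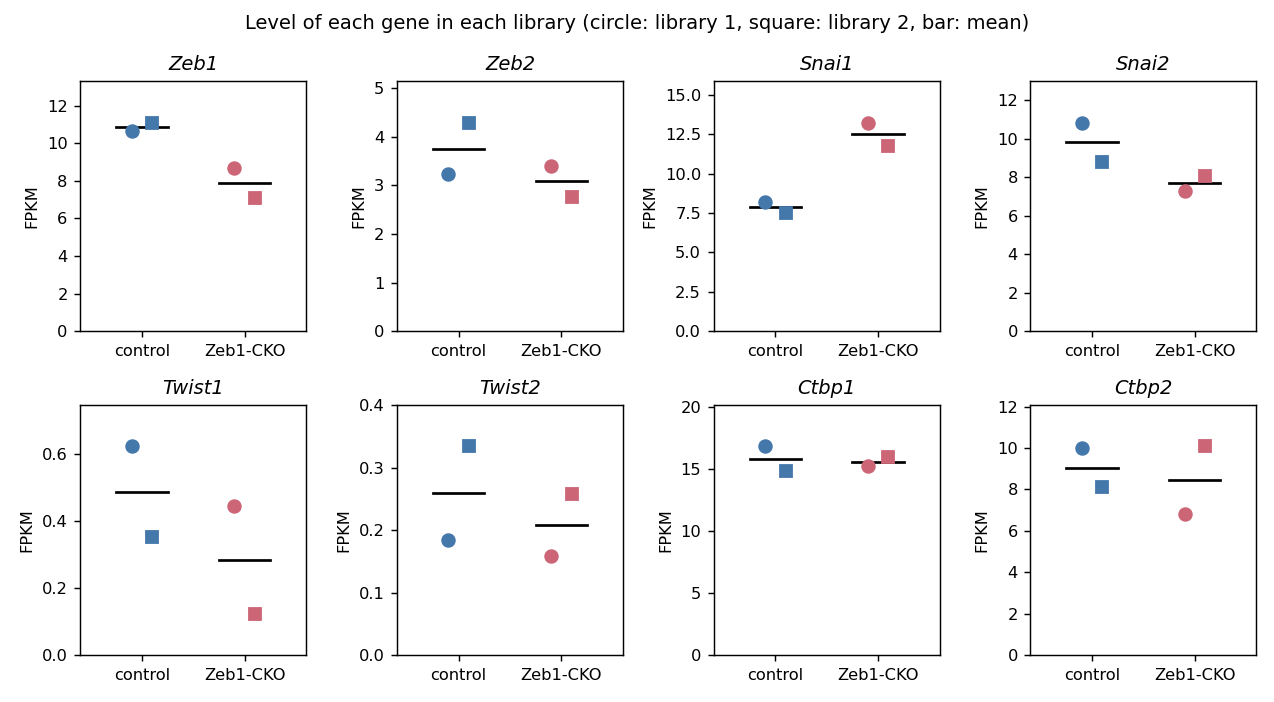
FPKM (linear axes from 0, each gene on its own scale) of the 8 genes in each library, with circles for library 1, squares for library 2 and bars for the mean of the genotype. The 2 genotypes do not overlap for Zeb1, Snai1 and Snai2, and Snai1 is the 1 gene of these with higher values in Zeb1-CKO.

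Zeb1 (ENSMUSG00000024238.14) encodes the repressor targeted in these mice, and its transcription starts on chromosome 18 at 5591860 (mm10, plus strand). It was measured at 10.7 and 11.1 FPKM in controls 1 and 2 and at 8.66 and 7.07 FPKM in Zeb1-CKO libraries 1 and 2. Both Zeb1-CKO libraries were thus below both controls, and their mean was 72.4% of the control mean. The difference was -0.43 on the log2(FPKM + 1) scale (SE 0.15, 95% interval -0.81 to -0.045), with limma's adjusted p at 0.235. Of all tested genes, 9.71% had a more negative difference than Zeb1. A value per gene sums reads from the whole transcript, so it does not show whether the deleted part was lost and is a weak check of the labels. Set against the summed endothelial markers, Zeb1 stood at 2.71 and 2.36 FPKM per 1000 FPKM of markers in the controls, against 1.93 and 1.45 in the Zeb1-CKO pair. These ratios did not overlap either, but an exact permutation test of 2 against 2 libraries cannot go below 0.33, the two-sided p it gave. Most of the marker sum came from Cldn5, at 2692 to 3500 FPKM. Of the 12 markers, 8 had positive and 4 had negative differences. Pericyte markers were lower beside Zeb1, with negative differences in all 10 genes of that list (median -0.32). Differences were also negative in all 6 tested smooth-muscle markers (median -0.78) and in 6 of 7 tested microglial markers (median -1.20). The median over all tested genes was 0.023. The part of these cells in the Zeb1 value was not tested.

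Zeb2 (ENSMUSG00000026872.17, chromosome 2, 44983632 to 45117395, minus strand, mm10) is the paralog of Zeb1 and binds the same kind of E-box. It had 3.22 and 4.29 FPKM in the controls against 3.40 and 2.76 in the Zeb1-CKO pair, so the genotypes overlapped. The difference was -0.22 on the log2 scale, with a 95% interval of -0.69 to 0.26 and limma's adjusted p at 0.615. It ranged from -0.38 without control replicate 1 to -0.054 without control replicate 2. Zeb1 made up 76.8% and 72.1% of the summed ZEB transcripts in the controls against 71.8% and 72.0% in the Zeb1-CKO pair (two-sided exact permutation p of 0.33, the smallest possible). Zeb1 was therefore the more abundant ZEB gene in each of the 4 libraries. The antisense gene Zeb2os, which shares 653 exon bases with Zeb2, was at 0.150 FPKM or less in every library, and Gm10125, which lies antisense to part of Zeb1, at 0.566 FPKM or less.

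Snai1 encodes Snail, a zinc-finger repressor that binds the same E-box letters and is known to act on its own promoter. Its gene (ENSMUSG00000042821.7) lies on chromosome 2 from 167538195 to 167542814 (mm10, plus strand) and has 3 exons and 1 annotated transcript. The 300 bases around its start are shown because they hold 1 such E-box, 126 bases before the start, while none of the promoter windows of the other genes of the 8 that could be matched holds one. The sequence is from RefSeq (GRCm38.p6, chr2:167537945-167538244, plus strand), from 250 bases before to 50 bases after the start, with the E-box in capitals.
Snai1 promoter: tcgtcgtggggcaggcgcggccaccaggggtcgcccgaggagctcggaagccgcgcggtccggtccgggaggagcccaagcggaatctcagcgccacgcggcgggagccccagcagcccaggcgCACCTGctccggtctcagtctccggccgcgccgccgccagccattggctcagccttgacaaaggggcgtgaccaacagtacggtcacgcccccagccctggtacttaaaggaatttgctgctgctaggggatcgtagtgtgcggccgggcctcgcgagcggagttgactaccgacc

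Snai1 had 8.22 and 7.47 FPKM in the controls against 13.2 and 11.7 in the Zeb1-CKO pair. Both Zeb1-CKO libraries were above both controls, and the mean was 1.59 times the control mean. At 0.61 on the log2 scale (SE 0.14, 95% interval 0.25 to 0.97), the difference missed the threshold over all genes, with limma's adjusted p at 0.101. Of all tested genes, 7.29% had a more positive difference. With 1 transcript of 1621 bases, and taking 1 step between low values as 1 fragment, the Snai1 values correspond to about 274 and 136 fragments in the controls against 471 and 320 in the Zeb1-CKO pair, which gives a counting error of 4.61% to 8.58%. Amplified fragments without molecular identifiers are not independent molecules, so this error covers counting only.

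Snai2 (ENSMUSG00000022676.7, chromosome 16, 14705852 to 14709385, plus strand, mm10) encodes Slug, the paralog of Snail. It had 10.8 and 8.82 FPKM in the controls against 7.27 and 8.09 in the Zeb1-CKO pair, with all Zeb1-CKO values below all control values. The difference was -0.31 on the log2 scale (95% interval -0.71 to 0.084), with limma's adjusted p at 0.379. Snai1 and Snai2 thus had differences of opposite sign. Their balance was examined after the values were seen: Snai1 made up 43.1% and 45.9% of the summed SNAI transcripts in the controls against 64.5% and 59.2% in the Zeb1-CKO pair. The shares did not overlap, and the two-sided exact permutation p was again 0.33, the smallest possible. Snai3, a further family member, stayed at 0.364 to 0.755 FPKM and was not tested.

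Twist1 and Twist2, which encode basic helix-loop-helix factors of mesoderm and mesenchyme, were near the lower end of what these libraries can measure. Twist1 (ENSMUSG00000035799.6, chromosome 12, 33957671 to 33959829, plus strand, mm10) was at 0.624 and 0.353 FPKM in the controls against 0.446 and 0.124 in the Zeb1-CKO pair, which is about 21 and 6 fragments against 16 and 3. The counting error alone was 21.9% to 54.4%, and the genotypes overlapped. Twist2 (ENSMUSG00000007805.4, chromosome 1, 91801461 to 91848028, plus strand, mm10) was at 0.184 and 0.334 FPKM in the controls against 0.158 and 0.259 in the Zeb1-CKO pair. Of its 3174 exon bases, 1477 lie opposite exons of Gm29100, whose reads cannot be told apart without strand, and Gm29100 itself was at 0.165 FPKM or less. No difference of either TWIST gene was detectable in these libraries.

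The CtBP genes were expressed in all 4 libraries, with no separation of the genotypes. Ctbp1 (ENSMUSG00000037373.12, chromosome 5, 33247723 to 33274994, minus strand, mm10) encodes a co-repressor recruited by ZEB proteins and was at 16.8 and 14.8 FPKM in the controls against 15.2 and 15.9 in the Zeb1-CKO pair. Its difference was -0.021 on the log2 scale with a 95% interval of -0.37 to 0.32 (limma's adjusted p of 0.954). Ctbp2 (ENSMUSG00000030970.16, chromosome 7, 132987563 to 133124354, minus strand, mm10) encodes the paralogous co-repressor and, from another promoter, the ribbon synapse protein Ribeye of photoreceptors. It was at 10.0 and 8.10 FPKM in the controls against 6.81 and 10.1 in the Zeb1-CKO pair, a difference of -0.11 with a 95% interval of -0.64 to 0.43 (limma's adjusted p of 0.840). The part of photoreceptor RNA in these values was not tested. Ctbp2 also shares 314 of its 6220 exon bases with the receptor gene Fgfr2 on the same strand, which was at 0.242 to 0.435 FPKM. The Ctbp1 share of the CtBP sum was 62.6% and 64.6% in the controls against 69.0% and 61.2% in Zeb1-CKO libraries, which overlapped (two-sided exact permutation p of 1).

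**Figure D3:**
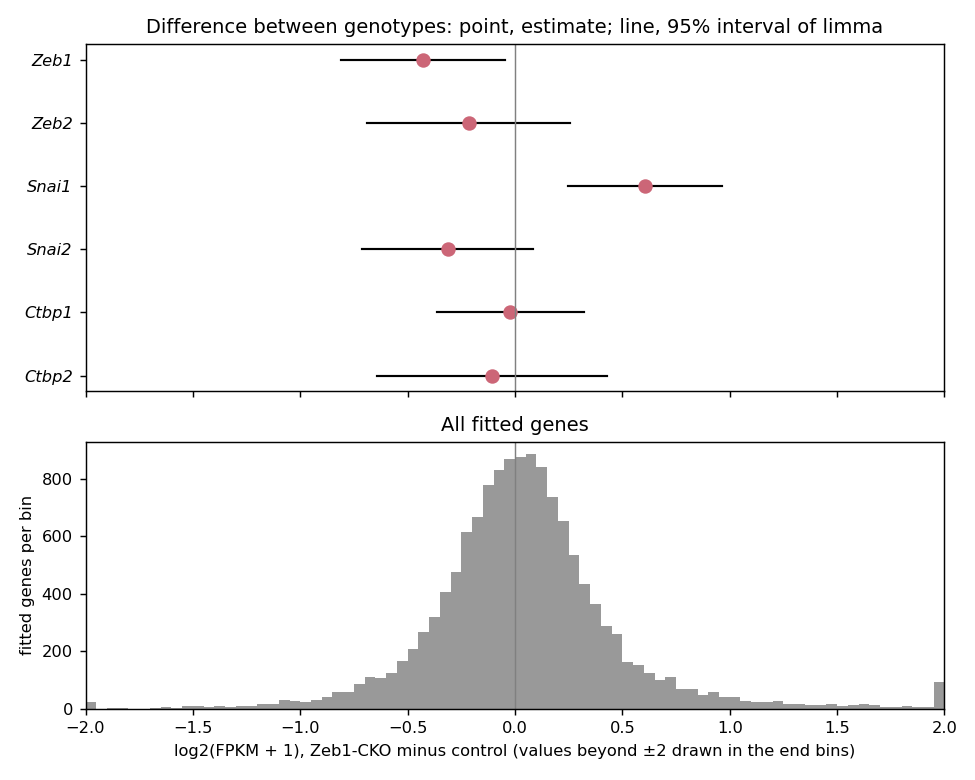
Upper panel, difference between genotypes on the log2(FPKM + 1) scale for the 6 tested genes, with limma's 95% interval. Lower panel, histogram of the same difference for all 13651 tested genes, with values beyond the axis drawn in the end bins. Only the intervals of Zeb1 (-0.81 to -0.045) and Snai1 (0.25 to 0.97) leave out 0, and neither passed the threshold over all genes.

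The 8 genes were ordered by their mean level in each genotype. In controls the order by mean FPKM was Ctbp1 (15.8), Zeb1 (10.9), Snai2 (9.83), Ctbp2 (9.06), Snai1 (7.85), Zeb2 (3.75), Twist1 (0.488) and Twist2 (0.259). From Zeb1 to Snai1 the libraries of each neighbouring pair overlapped, so these neighbours did not differ beyond their spread. In Zeb1-CKO cells Snai1 (12.5) stood second after Ctbp1 (15.5), without overlap with Ctbp1 or with Ctbp2 (8.45), followed by Zeb1 (7.87), Snai2 (7.68), Zeb2 (3.08), Twist1 (0.285) and Twist2 (0.209). There, Ctbp2, Zeb1 and Snai2 overlapped, as did Twist1 with Twist2. The summed level of the 6 DNA-binding factors was 33.8 and 32.3 FPKM in the controls against 33.2 and 30.1 in the Zeb1-CKO pair, which overlapped. Measured against all tested genes, the control mean of Zeb1 lay at the 70.2th percentile and that of Zeb2 at the 38.8th.

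Of the genes of partner proteins of the repressors, none passed the test. Of 23 chromatin enzymes and scaffolds that work with ZEB, SNAI or CtBP proteins, 22 were tested, 0 were called by limma and 2 had an unadjusted p under 0.05, with a median difference of -0.032 against 0.023 over all tested genes. The deacetylase gene Hdac1 was at 38.5 and 36.4 FPKM in the controls against 44.3 and 51.3 in the Zeb1-CKO pair (adjusted p of 0.286 by limma). Smarca4, which encodes the chromatin remodeller BRG1, a partner of ZEB1, was at 30.0 and 32.4 FPKM in the controls against 28.8 and 27.1 in the Zeb1-CKO pair. Of 9 partners and inhibitors of TWIST factors, 7 were tested, 0 were called by limma and 1 had an unadjusted p under 0.05, with a median of -0.082. Hand1 was at 0 in all 4 libraries, and Hand2 was at 0.0382 FPKM in control 2 and at 0 in the other libraries. The helix-loop-helix inhibitor genes Id3 and Id1 were the most abundant, Id3 at 336.2 and 295 FPKM in the controls against 189 and 244 in the Zeb1-CKO pair, and Id1 at 204 and 211 against 165 and 181 FPKM.

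Signals and regulators around the repressors gave 2 calls by limma, both higher, where 2.23% of all tested genes were called higher. Of 14 TGF-β pathway genes, all 14 were tested, 0 were called and 3 had an unadjusted p under 0.05, with a median of -0.14. The receptor genes Eng and Acvrl1 were the most abundant, Eng at 223 and 236 FPKM in the controls against 202 and 202 in the Zeb1-CKO pair, and Acvrl1 at 67.1 and 85.2 against 76.4 and 76.8 FPKM. Of 16 other transcription factors of the transition, 9 were tested and 1, Fosl1, rose. Fosl1, which encodes the AP-1 subunit FRA1, went from 2.95 and 3.97 FPKM in controls to 18.8 and 19.8 FPKM in Zeb1-CKO libraries, or 2.20 higher on the log2 scale (SE 0.17, limma's adjusted p of 0.00382). The other 8 did not pass, 7 of them with negative differences, and the median of the 9 was -0.27. Of 18 listed genes in the table whose products set the stability of SNAI, TWIST or ZEB proteins, 15 were tested and Pak1, a kinase that acts on Snail, rose from 0.248 and 0.354 FPKM to 4.63 and 3.72 FPKM (1.99 on the log2 scale, limma's adjusted p of 0.0102). Pak1 reached the mean needed for the test only through the Zeb1-CKO libraries. The call of Fosl1 ended without Zeb1-CKO replicate 1 (adjusted p of 0.05001) or replicate 2 (0.0525), and that of Pak1 likewise (0.107 and 0.0734), with the difference of Fosl1 at 2.03 to 2.36 and that of Pak1 at 1.86 to 2.12 on the log2 scale when any 1 library was left out.

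**Figure D4:**
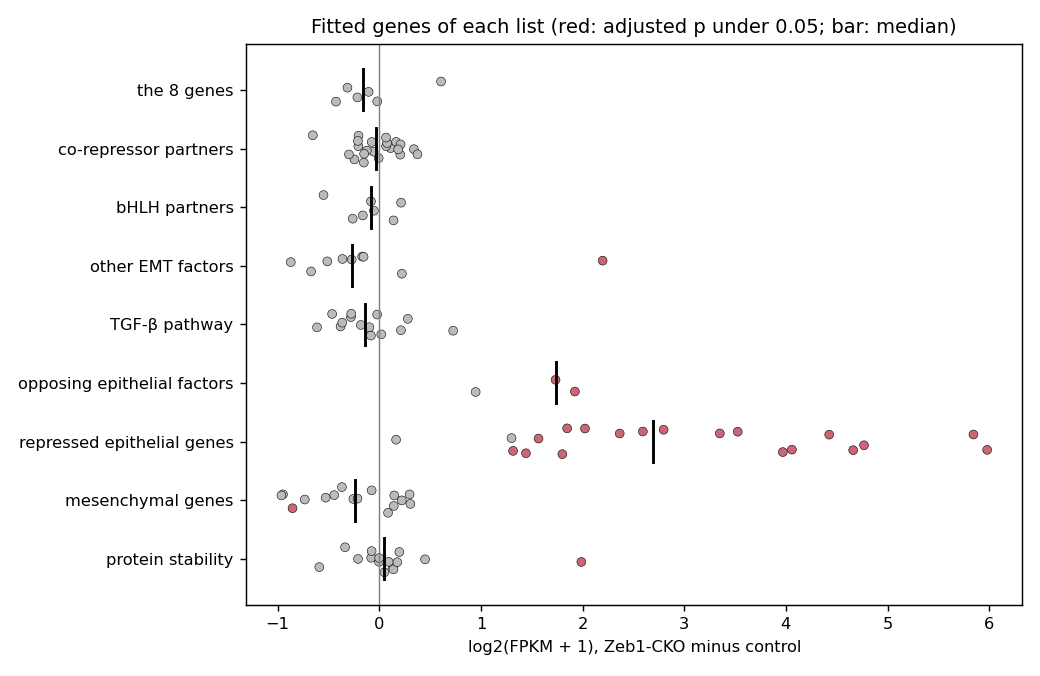
Difference between genotypes on the log2(FPKM + 1) scale for each tested gene of 9 lists, with called genes in red and the list's median as a bar. In the epithelial list 18 of 20 tested genes are called, and no more than 2 in any other list, against 2.23% called higher over all tested genes. The lists were chosen with earlier results of these data known. Only 3 of the 20 epithelial genes were above 1 FPKM in every library, so most had to be higher in Zeb1-CKO to be tested at all.

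Of the epithelial factors and miRNA genes that oppose ZEB proteins, Grhl2 and Esrp2 rose, and the others did not pass or were too low to be tested. Of 17 genes in this list, only 3 reached the mean needed for the test, which a gene silent in controls can reach only through Zeb1-CKO libraries. Over all tested genes, 2.23% were called higher. The third, Klf5, was at 0.746 and 0.656 FPKM in the controls against 2.75 and 1.87 in the Zeb1-CKO pair (limma's adjusted p of 0.0958). Grhl2, an epithelial transcription factor gene that represses Zeb1 in other systems, was at 0.161 and 0.157 FPKM in the controls against 2.82 and 2.88 in the Zeb1-CKO pair (limma's adjusted p of 0.0158). Esrp2, which encodes an epithelial splicing regulator, was at 0.444 and 0.392 FPKM in the controls against 3.22 and 5.86 in the Zeb1-CKO pair (limma's adjusted p of 0.0272). The call of Grhl2 ended without Zeb1-CKO replicate 1 (adjusted p of 0.126) or 2 (0.127), and that of Esrp2 when any 1 library was left out (0.0541 to 0.130). Counting all 17, tested or not, 10 had both Zeb1-CKO values above both control values and 0 the reverse, against 17.8% of all genes with a mean above 0 that were higher in that sense. Of these 10, all but Grhl2, Esrp2 and Klf5 stayed below 1 FPKM in every library, including a precursor gene of the miR-200 family. The precursor genes of the miR-200 family, which silence ZEB transcripts in epithelia, were at 0.366 FPKM or less in every library, and such short precursors are poorly captured by this protocol, so the values do not give the level of the mature miRNAs.

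The genes that ZEB and SNAI factors are known to silence had a median difference of 2.69, the largest of the gene lists examined here. The list of 27 was taken from general knowledge of other systems with earlier results of these data known, so its direction is not independent evidence. Of the 27, 20 reached the mean needed for the test. Of these, 18 rose, against 2.23% called higher over all tested genes, and Llgl2 and Ocln did not pass. Of the 20, 17 were below 1 FPKM in at least 1 library, so that most had to be higher in Zeb1-CKO to be tested at all. Counting all 27, 23 had both Zeb1-CKO values above both control values, against 17.8% over all genes with a mean above 0. Epcam, an epithelial adhesion gene, went from 0.0477 FPKM and a listed 0 in controls to 58.5 and 57.1 FPKM, and Ap1m2, a gene of epithelial protein sorting, from 0.0108 and 0.0515 FPKM to 25.2 and 29.1 FPKM. Spint1, a protease inhibitor gene, reached 26.2 and 25.9 FPKM from 0.0176 and 0.124, and Cdh1, the gene of E-cadherin, 22.4 and 22.3 FPKM from 0.156 and 0.0217. Limma's adjusted p for these 4 lay between 0.000320 and 0.000603, and each was also called when any 1 library was left out. The count of 18 was 10 without Zeb1-CKO replicate 1 or without Zeb1-CKO replicate 2, and 17 without either control. Ocln, a tight-junction gene, was already at 42.4 and 32.1 FPKM in controls and was at 40.5 and 42.4 FPKM in Zeb1-CKO libraries. Markers of retinal pigment epithelium, another epithelial source in the eye, summed to 22.6 and 22.8 FPKM in the controls against 22.8 and 29.6 in the Zeb1-CKO pair over 7 genes, most of it from Rlbp1, which Müller glia share. Of these 7, 3 were tested, all with positive differences, 0 were called by limma and 1 had an unadjusted p under 0.05. That 1 was the pigment gene Pmel, at 0.494 and 0.514 FPKM in the controls against 1.42 and 1.62 in the Zeb1-CKO pair (limma's adjusted p of 0.143), while the visual cycle gene Rpe65 did not exceed 0.0191 FPKM in either control and was at 0 in both Zeb1-CKO libraries. The part of these cells in the epithelial values was not tested. The differences of the epithelial list stood beside a Zeb1 transcript mean at 72.4% of the control mean.

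Promoter letters of these genes were set beside those of all genes. The E-box searched was CACCTG on either strand, that is CACCTG or CAGGTG, in RefSeq windows from 250 bases before to 50 bases after each start (GRCm38.p6). Of the 18 epithelial genes that could be matched, 17 had at least 1 window with these letters, and Spint1 was the exception, although it rose. Over all 27025 genes with a window the share was 22.6%. By windows, 84.0% of the 25 epithelial windows held the letters and 48.0% held them more than once, against 20.2% and 2.88% of all 32851 windows. This list was chosen as genes that ZEB and SNAI factors silence in other systems, with earlier results of these data known. Its share of the letters is therefore not independent evidence. Of the 8 repressor and co-repressor genes, 6 were matched, and Snai1 was the 1 of these with the letters. Zeb1 and Snai2 had no matched window, so their promoters were not examined. Epcam and Ap1m2 are shown because they had the smallest adjusted p among the matched genes with an E-box, and Ap1m2 holds 4 copies. E-box letters are in capitals, and the windows are chr17:87635729-87636028 (plus strand) for Epcam and chr9:21312284-21312583 (minus strand, printed in the direction of the gene) for Ap1m2.
Epcam promoter: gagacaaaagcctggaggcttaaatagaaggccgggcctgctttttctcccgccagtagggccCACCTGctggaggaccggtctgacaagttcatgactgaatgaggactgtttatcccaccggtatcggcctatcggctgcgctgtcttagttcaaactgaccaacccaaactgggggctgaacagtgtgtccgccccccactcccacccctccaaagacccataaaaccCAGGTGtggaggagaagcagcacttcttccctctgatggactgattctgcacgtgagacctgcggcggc
Ap1m2 promoter: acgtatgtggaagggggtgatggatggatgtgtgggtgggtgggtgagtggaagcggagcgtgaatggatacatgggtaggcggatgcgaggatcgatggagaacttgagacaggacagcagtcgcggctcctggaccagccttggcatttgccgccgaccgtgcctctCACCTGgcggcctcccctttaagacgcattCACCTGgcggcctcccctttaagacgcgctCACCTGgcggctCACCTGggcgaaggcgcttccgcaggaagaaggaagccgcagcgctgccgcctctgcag
In Epcam the copies begin 187 and 19 bases before the start, and in Ap1m2 81, 51, 21 and 9 bases before it. A match of letters describes the window and does not show that a factor binds there.

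**Figure D5:**
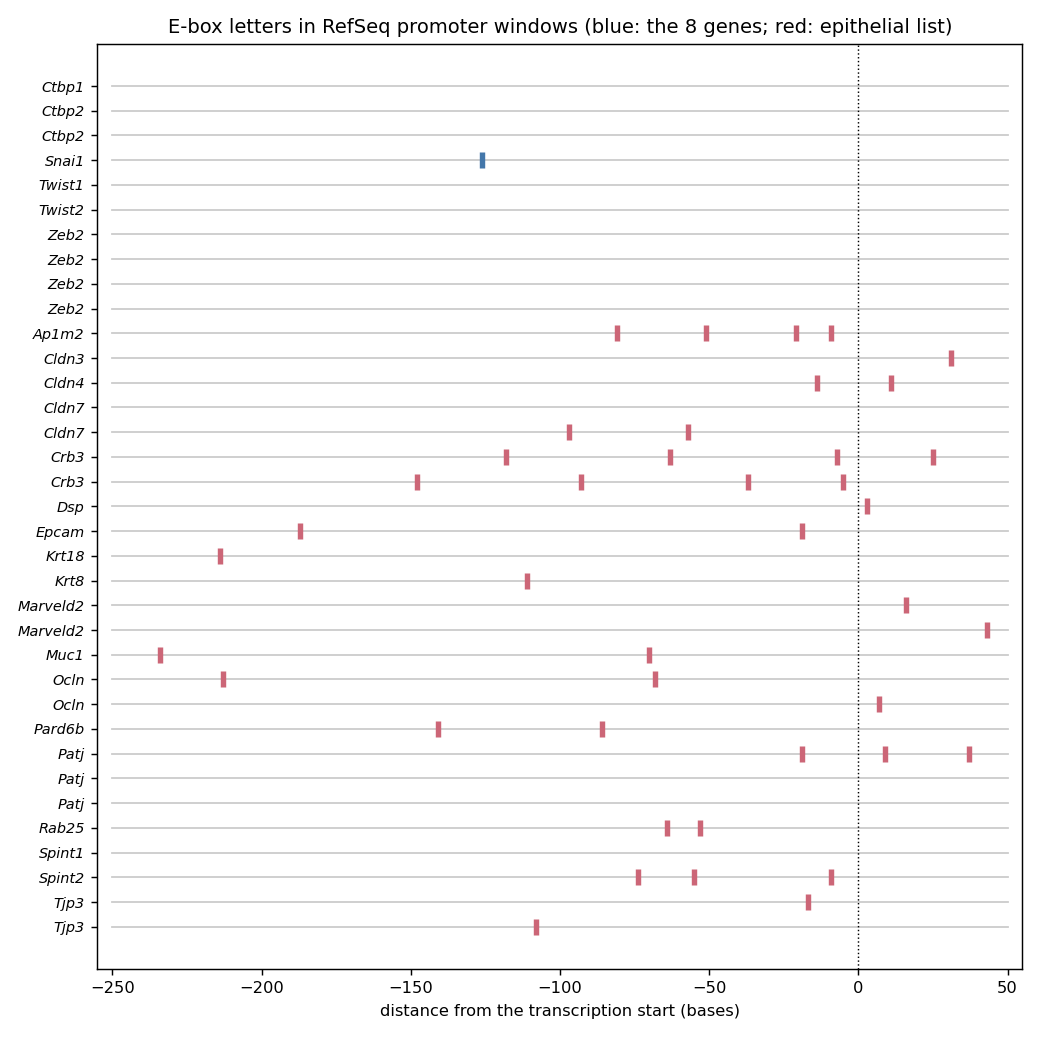
Position of the E-box letters (vertical marks), as distance in bases from the transcription start, in each matched promoter window of the 8 genes (blue) and of the epithelial list (red), with 1 line per window, so that genes with several windows are repeated. Snai1 is the 1 blue line with a mark, and 21 of the 25 epithelial windows have at least 1 mark.

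Among mesenchymal genes, which ZEB, SNAI and TWIST factors accompany in other systems, 1 passed the test, where 0.901% of all tested genes were called lower. Of 18 in the list, 16 were tested, 10 with negative and 6 with positive differences and a median of -0.24, and 1, the smooth-muscle actin-binding gene Tagln, fell, from 16.6 and 14.8 FPKM to 7.85 and 8.57 FPKM (limma's adjusted p of 0.0429). That call ended when any 1 library was left out (adjusted p of 0.0807 to 0.194). Of the 16 tested, 8 had both Zeb1-CKO values below both control values and 3 (Itga5, Mmp14 and Cdh11) had both above, against 22.3% lower and 27.1% higher in that sense over all tested genes. Smooth-muscle markers, a list that also holds Tagln and Acta2, had negative differences in all 6 tested genes, with sums of 431 to 573 FPKM in controls and 255 to 334 FPKM in Zeb1-CKO libraries, and their part in the Tagln value was not tested. Fibroblast markers summed to between 52.4 and 59.5 FPKM in all 4 libraries over 7 genes, but their members had differences of both signs. Of the 4 tested, 0 were called by limma and 3 had an unadjusted p under 0.05. Pdgfra was at 25.8 and 22.9 FPKM in the controls against 37.8 and 37.6 in the Zeb1-CKO pair, the collagen gene Col3a1 at 19.3 and 26.4 against 12.7 and 13.7 FPKM, and Col1a2 at 6.00 and 7.74 against 2.75 and 3.29 FPKM. Dcn, Lum and Dpt were at 0.224 FPKM or less. The part of fibroblasts in the mesenchymal values was not tested. Vim, the gene of vimentin, was at 111 and 115 FPKM in the controls against 125 and 91.7 in the Zeb1-CKO pair, and the N-cadherin gene Cdh2 at 35.9 and 40.7 against 44.6 and 40.0 FPKM. Neither passed the test (limma's adjusted p of 0.867 and 0.660), and both were named after their values were seen.

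Genes with the most similar profiles were looked up for Zeb1, Zeb2 and Snai1 among 6742 protein-coding genes averaging 5 FPKM or more, by the distance between log2(FPKM + 1) values centred on each gene's mean over the 4 libraries. The nearest to Zeb1 were Oxct1 (distance 0.030), Tcf7 (0.048) and Ankrd13a (0.054). The nearest to Zeb2 were Adam15 (0.031), Tet3 (0.046) and Crebbp (0.054), and the nearest to Snai1 were Paqr4 (0.036), Cfap20 (0.063) and Ckap2 (0.073). Over only 4 libraries, a small distance between profiles is a description of these libraries.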

How the data were processed

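Libraries were made from 100 sorted cells with the SMART-Seq v4 kit and sequenced in pairs of 150 bases, per the labels' protocols, and the authors processed them with Trimmomatic 0.36, HISAT2 2.1.0 and StringTie 1.3.3 on mm10, per the submitters' processing notes. The deposited values are FPKM per gene, a unit read from the values and the tools, since the header names none. Because FPKM are relative to the library total, strong changes in some genes can move the rest. The labels describe no step that marks strand. No annotation release is named in the sources used here.

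Columns were matched to samples by name. The comparison of genotypes used limma 3.58.1 with its trend option in R 4.3.3, on FPKM in log2 after adding a pseudocount of 1, for the 13651 genes averaging 1 FPKM or more. FPKM do not allow a count test. The script was tested on simulated data. Depth was estimated from genes with 1 transcript longer than 600 bases, where FPKM times length falls on steps taken as 1 fragment; 20.4% to 27.9% of values below 400 lay within 0.02 of a whole step, against 4% at random. Gene spans are from GENCODE M21, in which 53229 of the 54446 identifiers matched; that of Zeb1 has another version there, so only its start from the deposited table is given. By BLAST 2.17.0, no transcript of another gene of at least 200 bases matched the 8 genes with 95% identity over 80% of the shorter transcript.

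The 8 genes and all gene lists were chosen with earlier results of these data known. Genes named are the 8, up to 4 called genes per pathway list by smallest p or else the 2 most abundant, abundant cell type markers, genes sharing exons with the 8, and the 3 nearest profiles; other exceptions are stated where they occur. An item that this rule takes is not reported here. Replicate numbers came from the titles, which do not say that equal numbers share a mouse or a day. Protein sequences were not used here. Plots were made in Python 3.11.15 with matplotlib 3.10.9.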

Additional observations from a re-analysis of the deposited data

How the results depend on the processing

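None of the 8 genes was called in any alternative that tested it: 15 for Zeb1, Snai1, Snai2, Ctbp1 and Ctbp2, 14 for Zeb2 and 1, with no filter, for Twist1 and Twist2. Zeb1, Zeb2, Snai1 and Snai2 kept their direction in these, with Zeb2 at -0.378 to -0.0544 and Snai2 at -0.449 to -0.179 when a library was left out; adjusted p ranged from 0.206 to 0.570 for Zeb1 and from 0.0893 to 0.326 for Snai1. With a pseudocount of 0.1 the differences of Twist1 and Twist2 became -0.712 and -0.206, and that of Twist2 was 0.0286 without control replicate 2 and 0.00227 without Zeb1-CKO replicate 1. Leaving out each library gave -0.106 to 0.0635 for Ctbp1 and -0.358 to 0.147 for Ctbp2, with a positive sign without control replicate 1 or Zeb1-CKO replicate 1. Acvrl1 was at -0.0336 with upper-quartile and -0.0126 with median-ratio scaling, and at -0.151 to 0.189 with a library left out. Genes called higher numbered 70 with no filter, 169 with a mean of at least 5 FPKM and 48 to 238 with a library left out, and those called lower 15 with no filter and 15 to 64 with a library left out. Over the pathway lists, 22 genes were called higher and 1 lower, against 12 and 0 with no filter, 11 higher with a mean of at least 5 FPKM, 2 lower with upper-quartile or quantile scaling, 0 lower without the trend, and 10 to 21 higher and 0 lower with a library left out. Among single genes, the call was lost in 2 of 15 alternatives for Fosl1, 3 of 14 for Pak1 and 3 of 14 for Grhl2. It was lost in 6 of 14 for Esrp2 and 7 of 15 for Tagln. These alternatives include the fits with a library left out. The cause of these shifts was not tested.

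With the replicate block, 155 genes were called higher and 38 lower over all genes, 20 pathway genes higher and 0 lower, and 0 of the 8 genes. The deviations of equal numbers correlated at -0.118, and the crossed replicate block, added after seeing the data, gave 306 higher and 149 lower, with 2 pathway genes lower. The numbers are not shown to pair the libraries. With a library left out, the difference in the Zeb1 share of ZEB transcripts ranged from -4.91 to -0.239 percentage points, smallest without control replicate 1; that in the Ctbp1 share ranged from -2.46 to 5.38, negative without Zeb1-CKO replicate 1; and that in the Snai1 share of SNAI transcripts stayed at 14.7 or more. At 11.2 to 22.0 M fragments, depth limits Twist1 and Twist2, and 2 libraries per genotype limit all tests.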

Other observations

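The E-box letters of the ZEB and SNAI factors were also counted over the whole table, in the RefSeq window nearest to each gene's deposited start; this count was chosen after the data were seen and is a description with no test. Of the genes called higher in Zeb1-CKO cells, 210 were matched and 39.5% held CACCTG on either strand, 13.8% more than once. Without the epithelial list, 196 such genes remained, with 36.2% holding the letters and 10.7% more than once. Only the genes of that list were left out. Whether epithelial genes outside it remain among the 196 was not tested, so their share is not shown to be independent of epithelial genes. How many of the 196 reached the mean needed for the test only through Zeb1-CKO libraries was not counted. Of the 69 matched genes called lower, 13.0% held the letters. Of all 9238 matched genes that were tested, 16.6% did, with 2.11% holding them more than once. The median share of G and C in these windows was 60.7% for genes called higher, 58.7% for genes called lower and 61.3% over all.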
